A study of Mus musculus with 4 samples.

Results

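The genes followed here are 9 stress-inducible genes in the cells of mouse liver tumours: the heat shock genes Hspa1a, Hspa1b, Dnajb1 and Hsph1, the immediate early genes Fos, Jun, Egr1 and Egr3, and the stress-induced factor Atf3. They were taken by symbol from the deposited count matrices, as 9 of the 32285 genes measured, and each symbol matched 1 gene. Their unique molecular identifier (UMI) counts, each UMI standing for 1 captured transcript, were summed in every cell class and in each of 4 libraries. The question was how far these genes differ between cell types of the same library, and how far whole libraries differ in them.

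Heat shock genes are controlled by heat shock factor 1, which is freed when misfolded protein occupies chaperones, and which then binds heat shock elements, short inverted repeats in the promoters of its targets. Hspa1a and Hspa1b encode the stress-inducible Hsp70 chaperone, Dnajb1 is a co-chaperone of the Hsp40 family that hands clients to Hsp70, and Hsph1 is a nucleotide exchange factor that reloads Hsp70. Immediate early genes need no new protein for their transcription and answer to growth factors, receptor signalling and mechanical stress within minutes. Fos and Jun form the AP-1 dimer, Egr1 and Egr3 are zinc finger factors downstream of MAP kinase and calcium signals, and Atf3 is a repressor-type bZIP factor reached by the integrated stress response and by Toll-like receptors. Warm enzymatic digestion of tissue is known to induce genes of these groups in many cell types, and resting cells of some types also carry them.

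The tumours were liver metastases of MC38, a mouse colon carcinoma line, in C57BL/6J mice. The 4 libraries were compared, 1 for each combination: HFD_shYap (high-fat diet, shYap-MC38), HFD_WT (high-fat diet, WT-MC38), LFD_shYap (low-fat diet, shYap-MC38) and LFD_WT (low-fat diet, WT-MC38). In the library names WT and shYap describe the tumour line, and shYap is the knockdown derivative of it per the design text. The titles also call the mice of all 4 libraries WT. Tumour tissue was parted from the liver around it and dissociated, CD45-bearing cells were picked up on antibody-coated magnetic beads, and 10x Genomics 3′ v3.1 libraries were made. There is 1 library per combination and the labels do not say how many mice each came from, so a p-value reflects the spread between libraries and not that between animals. The labels of LFD_shYap contradict each other, with a low-fat title and a high-fat treatment field. It is placed by its title here, and diet results are also given by the field.

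Of 50062 deposited barcodes, 38243 were kept (7281 in HFD_shYap, 10865 in HFD_WT, 9013 in LFD_shYap and 11084 in LFD_WT), with a median of 6754 to 9946 UMIs per cell and 89018937 to 119014344 UMIs per library. Any pair of libraries shared at most 0.385% of its cell barcodes. HFD_shYap stood apart: 2012 of its cells held Xist without Y-linked UMIs, 2974 held Y-linked UMIs without Xist and 417 held both, while each other library had at most 1 cell with Xist alone and at most 5 with both. HFD_shYap thus held cells of both sexes, and the diet calls are also given for each kind of cell. Levels are given as CPM, the UMIs of a gene per 1000000 UMIs of its class and library. Yap1, the knockdown target, stood at 20.02 CPM in HFD_shYap, 15.4 in HFD_WT, 14.97 in LFD_shYap and 19.4 in LFD_WT in the Tm4sf1/Msln cluster described below. The library labelled LFD_shYap had less Yap1 there than LFD_WT, and the one labelled HFD_shYap had no less than HFD_WT, so the line contrast is one of labels.

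Cells were clustered without the 9 genes and without the related lists used below, 69 genes in all, so that none of them shaped the clusters. Clusters were named by marker genes, with names that stand for likeness only (neutrophil for neutrophil-like). Of the classes, 12 had at least 30 cells in every library and were tested, namely macrophage (19414 cells), monocyte, neutrophil (2193), type 1 and type 2 conventional dendritic cells (cDC1, cDC2), CD8 T, regulatory T, NK and B cells, a further class of T cells that enters the sums and counts but is not described by itself, and 2 clusters called by their leading genes, Tm4sf1/Msln and Col3a1/Dcn. Ptprc, the gene of CD45, was at 4.69 to 11.98 CPM in the Tm4sf1/Msln cluster and at 12.8 to 22.7 CPM in the Col3a1/Dcn cluster, against 288 to 338 CPM in macrophages, so both clusters went against the CD45 selection named in the labels.

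The 2 Hsp70 genes are near-copies that lie beside each other, and their promoters are printed because the levels of the 2 genes came apart between cell types. Hspa1a (ENSMUSG00000091971) lies on chromosome 17 at 34969190 to 34972156 and Hspa1b (ENSMUSG00000090877) at 34956436 to 34959238, both of 1 exon, on the minus strand of GRCm38, with 9951 bases between them. Their 250 bases before the start, from RefSeq on GRCm38.p6, are identical at 247 positions and differ at 3. Capitals mark the match to the heat shock element GAANNTTC, which starts 104 bases before the start of either gene. The third promoter, of Hsph1 (chromosome 5, 149614287 to 149636376, minus strand), holds the element in its other phase, TTCNNGAA, 33 bases before the RefSeq start. This start and the element lie inside the annotated span just given. A second RefSeq start of Hsph1, whose window is not printed, has the element 54 bases before it.
Hspa1a (chr17:34972157-34972406, minus strand): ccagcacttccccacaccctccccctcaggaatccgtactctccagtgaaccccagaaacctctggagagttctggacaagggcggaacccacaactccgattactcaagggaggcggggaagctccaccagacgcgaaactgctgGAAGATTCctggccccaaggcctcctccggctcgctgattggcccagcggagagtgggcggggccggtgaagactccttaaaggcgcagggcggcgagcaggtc
Hspa1b (chr17:34959239-34959488, minus strand): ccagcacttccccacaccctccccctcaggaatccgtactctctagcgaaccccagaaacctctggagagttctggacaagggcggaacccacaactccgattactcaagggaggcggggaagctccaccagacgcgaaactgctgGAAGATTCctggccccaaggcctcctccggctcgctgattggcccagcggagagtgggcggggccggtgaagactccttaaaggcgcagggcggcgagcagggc
Hsph1 (chr5:149636337-149636586, minus strand): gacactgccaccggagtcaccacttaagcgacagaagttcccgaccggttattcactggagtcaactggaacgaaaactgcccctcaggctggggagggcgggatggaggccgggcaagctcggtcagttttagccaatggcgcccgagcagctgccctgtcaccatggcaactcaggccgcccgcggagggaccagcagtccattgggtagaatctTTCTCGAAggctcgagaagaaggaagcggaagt
Both strands were searched for both phases, and 12.8% of 32851 promoters of this length hold at least 1. Jun (chromosome 4, 95049034 to 95052222, minus strand, 1 exon) also holds GAANNTTC, 128 bases before its start, while the windows of Dnajb1 (chromosome 8, 83608193 to 83612653, plus strand), Fos (chromosome 12, 85473890 to 85477273, plus strand) and Atf3 (chromosome 1, 191170296 to 191218039, minus strand) hold neither phase. The Atf3 window lies at 191183334 to 191183583, inside the span given for the gene. Sequence before the outer end of that span was not searched. A match describes letters, not binding. Egr1 (ENSMUSG00000038418) and Egr3 (ENSMUSG00000033730) are named without sequence.

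The counts of the near-copies can be told apart only where their sequences differ. Of the 50-base words of their coding sequences, 82.4% of those of Hspa1a occur in Hspa1b and 82.3% of those of Hspa1b in Hspa1a, whereas none of those behind the stop codon, where 3′ reads fall, is shared. The sources used here do not say how reads matching both were counted, so the split between the pair is less certain than their sum. Hspa1a also overlaps the antisense gene Gm20481 over 2225 bases and Jun overlaps the antisense gene Junos over 689 bases, and the use of strand in counting is likewise not stated there.

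Between cell classes, each class was tested against the mean of the other 11 with the library as a block (edgeR quasi-likelihood test, Benjamini-Hochberg adjustment over 11733 genes, adjusted p under 0.05). Over the 12 classes, 82 of the 108 tests of the 9 genes passed, 37 higher and 45 lower, beside 48.5% of all tests of all genes. Neutrophils had 8 of the 9 higher and 1 lower, where 30.1% of all genes were higher and 30.1% lower. Macrophages had 5 higher and 4 lower (30.2% and 27.9% of all genes), monocytes 4 and 3 (30.4% and 24.1%), cDC1 4 and 3 (27.2% and 20.8%), and cDC2 3 and 3 (24.6% and 14.9%). Among lymphoid cells, CD8 T cells had 0 higher and 7 lower (35.0% and 21.3%), regulatory T cells 0 and 5 (13.2% and 11.9%), NK cells 0 and 6 (25.8% and 16.5%), and B cells 1 and 2 (12.3% and 7.86%). The Tm4sf1/Msln cluster had 5 higher and 3 lower (43.7% and 33.2%) and the Col3a1/Dcn cluster 6 and 3 (38.5% and 30.7%). The median log2 fold change of the 9 genes was 2.38 in neutrophils (all genes -0.09) and -1.24 in CD8 T cells (all genes 0.11). In sums over cells, fewer cells with a transcript and less of it per cell cannot be told apart.

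Hspa1a, the first of the pair that encodes inducible Hsp70, was higher in neutrophils, monocytes and macrophages, and in cDC1 (1.06) and cDC2 (0.65, log2 fold changes), than in the mean of the other classes. In neutrophils it stood at 123 CPM in HFD_shYap, 396 in HFD_WT, 147 in LFD_shYap and 43.5 in LFD_WT, with HFD_WT far above the others. In monocytes it stood at 217 CPM in HFD_shYap, 271 in HFD_WT, 82.3 in LFD_shYap and 53.6 in LFD_WT, and both HFD libraries were above both LFD libraries. In macrophages the level was more even, at 129 CPM in HFD_shYap, 157 in HFD_WT, 159 in LFD_shYap and 103 in LFD_WT. The 3 classes were higher than the mean of the others, neutrophils at log2 fold change 2.51 ± 0.233, adjusted p = 1.58e-13, monocytes at log2 fold change 2.02 ± 0.200, adjusted p = 1.78e-12, and macrophages at log2 fold change 1.75 ± 0.198, adjusted p = 8.11e-11. Their order among themselves is unclear, since 8 of the other 11 classes overlapped the range of neutrophils. Without HFD_WT the neutrophil value was 1.90, and without doublet removal it was 1.91.

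The 2 clusters with little Ptprc had almost no Hspa1a. The Tm4sf1/Msln cluster held 4.16 CPM in HFD_shYap, 6.83 in HFD_WT, 3.32 in LFD_shYap and 6.09 in LFD_WT (log2 fold change -3.11 ± 0.322, adjusted p = 2.5e-12), and the Col3a1/Dcn cluster 3.25 CPM in HFD_shYap, 5.38 in HFD_WT, 5.45 in LFD_shYap and 4.18 in LFD_WT (log2 fold change -3.31 ± 0.379, adjusted p = 7.43e-11). Every library of either cluster was under every library of the other 10 classes, and the mean over libraries of the neutrophils was 38.8 times that of the Col3a1/Dcn cluster. Free macrophage RNA in droplets can give such low values. Scaled by the macrophage complement genes C1qa, C1qb and C1qc, which stood in the Col3a1/Dcn cluster at 3.66% to 5.60% of their macrophage level, free RNA would give as much Hspa1a as was seen or more (observed over expected 0.450 to 0.934), and in the Tm4sf1/Msln cluster the ratio was 1.12 to 2.02. No level of its own can be read for the Col3a1/Dcn cluster. Without doublet removal the fold changes were -2.17 for Tm4sf1/Msln and -2.18 for Col3a1/Dcn.

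Hspa1b, with nearly the same promoter, was lower than in the other classes in these 2 clusters too: Tm4sf1/Msln had log2 fold change -0.64 ± 0.238, adjusted p = 0.0141, and Col3a1/Dcn had log2 fold change -0.59 ± 0.257, adjusted p = 0.0370, both calls that were lost without some of the libraries. The Tm4sf1/Msln cluster held 73.6 CPM in HFD_shYap, 38.8 in HFD_WT, 25.7 in LFD_shYap and 12.2 in LFD_WT and the Col3a1/Dcn cluster held 53.04 CPM in HFD_shYap, 49.9 in HFD_WT, 26.2 in LFD_shYap and 17.4 in LFD_WT. Hspa1a made up 5.35% in HFD_shYap, 14.97% in HFD_WT, 11.5% in LFD_shYap and 33.2% in LFD_WT of the UMIs of the pair in the Tm4sf1/Msln cluster, and in the Col3a1/Dcn cluster 5.77% in HFD_shYap, 9.74% in HFD_WT, 17.2% in LFD_shYap and 19.4% in LFD_WT. In macrophages its share was 57.3% in HFD_shYap, 55.1% in HFD_WT, 69.5% in LFD_shYap and 66.9% in LFD_WT. The shares of macrophages thus lay above those of both clusters in every library.

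Hspa1b was high in the same myeloid classes. It stood at 166 CPM in HFD_shYap, 414 in HFD_WT, 110.1 in LFD_shYap and 64.6 in LFD_WT in neutrophils (log2 fold change 2.26 ± 0.224, adjusted p = 1.48e-12), and at 222 CPM in HFD_shYap, 201 in HFD_WT, 55.03 in LFD_shYap and 27.5 in LFD_WT in monocytes (log2 fold change 1.21 ± 0.202, adjusted p = 1.17e-06). Both HFD libraries lay above both LFD libraries in either class. Macrophages were higher by 0.66 (adjusted p = 0.00503), a call lost without the library block at an adjusted p of 0.175. CD8 T cells held 38.8 CPM in HFD_shYap, 34.8 in HFD_WT, 21.1 in LFD_shYap and 14.4 in LFD_WT, lower than the other classes by log2 fold change -1.07 ± 0.282, adjusted p = 0.00113, and without the library block the adjusted p was 0.0527. Across classes the mean level spanned 7.75-fold for Hspa1b, from neutrophils to B cells.

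The co-chaperones were highest in the clusters where Hspa1a was lowest. Dnajb1 was highest in the Col3a1/Dcn cluster, at 194 CPM in HFD_shYap, 233 in HFD_WT, 178 in LFD_shYap and 166 in LFD_WT (log2 fold change 1.49 ± 0.0853, adjusted p = 2.35e-21). It followed in the Tm4sf1/Msln cluster, at 197 CPM in HFD_shYap, 182 in HFD_WT, 130.4 in LFD_shYap and 113 in LFD_WT (log2 fold change 1.18 ± 0.0849, adjusted p = 1.07e-17). The 2 clusters overlapped each other, and no other class reached the first. Macrophages held 56.1 CPM in HFD_shYap, 51.2 in HFD_WT, 57.4 in LFD_shYap and 53.1 in LFD_WT, an even level that was lower than the other classes (log2 fold change -0.67 ± 0.0969, adjusted p = 5.6e-08). Neutrophils were higher by 0.50 (adjusted p = 0.000169), which without doublet removal had an adjusted p of 0.476. The mean level spanned 4.44-fold over the classes, the smallest span of the 9 genes.

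Hsph1, which frees Hsp70 of ADP, was likewise high in the clusters with little Ptprc. It stood at 195 CPM in HFD_shYap, 183 in HFD_WT, 91.2 in LFD_shYap and 118 in LFD_WT in the Tm4sf1/Msln cluster (log2 fold change 1.83 ± 0.107, adjusted p = 3.83e-21) and at 157 CPM in HFD_shYap, 177 in HFD_WT, 69.03 in LFD_shYap and 147 in LFD_WT in the Col3a1/Dcn cluster (log2 fold change 1.68 ± 0.113, adjusted p = 1.45e-18). LFD_shYap was the lowest library in both. Neutrophils, higher than the other classes in Hspa1a and Hspa1b, had the lowest mean Hsph1, at 33.9 CPM in HFD_shYap, 21.4 in HFD_WT, 9.71 in LFD_shYap and 14.5 in LFD_WT (log2 fold change -1.01 ± 0.203, adjusted p = 2.97e-05); with the Xist cells alone for HFD_shYap the adjusted p was 0.0731. Macrophages held 36.8 CPM in HFD_shYap, 42.04 in HFD_WT, 20.96 in LFD_shYap and 37.5 in LFD_WT and were lower by log2 fold change -0.67 ± 0.126, adjusted p = 1.05e-05.

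Fos, the inducible partner in AP-1, was led by neutrophils. They held 1984 CPM in HFD_shYap, 1138 in HFD_WT, 994 in LFD_shYap and 1381 in LFD_WT, a mean of 1374 ± 437 CPM (SD over the 4 libraries), and were higher than the other classes (log2 fold change 2.38 ± 0.108, adjusted p = 2.58e-25). No tested class overlapped them, the next highest value being 841 CPM in the macrophages of LFD_WT. Macrophages held 779.7 CPM in HFD_shYap, 676 in HFD_WT, 744 in LFD_shYap and 841 in LFD_WT (log2 fold change 0.98 ± 0.117, adjusted p = 3.55e-10), and monocytes (0.97), cDC1 (0.997), cDC2 (0.50) and the Col3a1/Dcn cluster (0.73) were also higher. CD8 T cells held 64.4 CPM in HFD_shYap, 49.9 in HFD_WT, 59.2 in LFD_shYap and 125 in LFD_WT, the lowest mean of the tested classes (log2 fold change -2.58 ± 0.167, adjusted p = 1.1e-18). Their level was 1.36 to 2.47 times what free macrophage RNA would give. Regulatory T (-1.54) and NK cells (-1.57) also had a lower level, while B cells had -0.03 (adjusted p = 0.963).

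Jun, which pairs with Fos, had a different order of classes. It stood at 659 CPM in HFD_shYap, 509.5 in HFD_WT, 532 in LFD_shYap and 654 in LFD_WT in the Tm4sf1/Msln cluster (log2 fold change 2.32 ± 0.137, adjusted p = 7.41e-21), and neutrophils held 569 CPM in HFD_shYap, 747 in HFD_WT, 615 in LFD_shYap and 365 in LFD_WT (log2 fold change 2.54 ± 0.145, adjusted p = 2.89e-21). The Col3a1/Dcn cluster held 472 CPM in HFD_shYap, 479 in HFD_WT, 640.2 in LFD_shYap and 662 in LFD_WT (log2 fold change 2.17 ± 0.140, adjusted p = 3.16e-19). These 3 overlapped. Macrophages held 193 CPM in HFD_shYap, 174 in HFD_WT, 516 in LFD_shYap and 305 in LFD_WT, with both HFD libraries below both LFD libraries, and were higher than the other classes by log2 fold change 0.90 ± 0.153, adjusted p = 1.61e-06. CD8 T cells were lowest again, at 22.9 CPM in HFD_shYap, 20.8 in HFD_WT, 35.5 in LFD_shYap and 38.9 in LFD_WT (log2 fold change -2.55 ± 0.224, adjusted p = 5.31e-14), a level 1.87 to 3.55 times that expected from free macrophage RNA. In cDC1 the 2 genes parted, with Jun lower (log2 fold change -0.84 ± 0.195, adjusted p = 0.000316) and Fos higher. The cDC2, also higher in Fos, had -0.28 for Jun (adjusted p = 0.227).

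Egr1, a zinc finger factor induced through serum response factor, marked 3 classes. In neutrophils it stood at 1871 CPM in HFD_shYap, 773 in HFD_WT, 532 in LFD_shYap and 638 in LFD_WT (log2 fold change 3.55 ± 0.128, adjusted p = 1.79e-29), with HFD_shYap more than any other library; without doublet removal the fold change was 2.90. The Col3a1/Dcn cluster held 692 CPM in HFD_shYap, 614 in HFD_WT, 692 in LFD_shYap and 681 in LFD_WT (log2 fold change 2.78 ± 0.128, adjusted p = 3.95e-25), with little spread between libraries. Next came the Tm4sf1/Msln cluster, at 558 CPM in HFD_shYap, 423 in HFD_WT, 408 in LFD_shYap and 456 in LFD_WT (log2 fold change 2.22 ± 0.132, adjusted p = 7.26e-21). The other 9 classes were all lower, macrophages among them at 97.8 CPM in HFD_shYap, 62.9 in HFD_WT, 112 in LFD_shYap and 134 in LFD_WT. In neutrophils the observed Egr1 was 15.3 to 138 times, and the observed Fos 5.29 to 18.3 times, what free macrophage RNA would give. Summed markers of phagocytes stood in neutrophils at 6990 CPM in HFD_shYap, 12326 in HFD_WT, 15828 in LFD_shYap and 24021 in LFD_WT, with 10 of 10 markers detected, and their part in the result was not tested.

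Egr3, a close relative of Egr1 that is known in lymphocytes for its role after antigen receptor signals, was highest in dendritic cells of type 1. These cDC1 held 185 CPM in HFD_shYap, 123 in HFD_WT, 87.1 in LFD_shYap and 163 in LFD_WT (log2 fold change 3.43 ± 0.196, adjusted p = 7.5e-21), a mean of 139.5 ± 43.2 CPM (SD over the 4 libraries). The Col3a1/Dcn cluster held 88.8 CPM in HFD_shYap, 66.6 in HFD_WT, 64.9 in LFD_shYap and 82.6 in LFD_WT (log2 fold change 2.34 ± 0.206, adjusted p = 1.9e-14) and overlapped cDC1 by a single library. Neutrophils ranged most, at 65.03 CPM in HFD_shYap, 10.7 in HFD_WT, 17.8 in LFD_shYap and 132 in LFD_WT (log2 fold change 1.85 ± 0.288, adjusted p = 2.25e-07), and without LFD_WT the fold change was 1.23. CD8 T cells had the lowest mean of the tested classes, at 2.84 CPM in HFD_shYap, 1.83 in HFD_WT, 1.60 in LFD_shYap and 6.48 in LFD_WT (log2 fold change -2.91 ± 0.429, adjusted p = 8.72e-08). The span between the mean of cDC1 and that of CD8 T cells was 43.8-fold, the widest of the 9 genes, whereas cDC1 held less Egr1 than most classes (log2 fold change -1.08 ± 0.195, adjusted p = 7.27e-06).

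Atf3 was highest by mean in neutrophils, macrophages and cDC1. It stood at 314 CPM in HFD_shYap, 399.8 in HFD_WT, 267 in LFD_shYap and 240.1 in LFD_WT in neutrophils (log2 fold change 3.07 ± 0.137, adjusted p = 1.59e-25) and at 179.6 CPM in HFD_shYap, 266 in HFD_WT, 155 in LFD_shYap and 191 in LFD_WT in cDC1 (log2 fold change 2.23 ± 0.138, adjusted p = 1.71e-19). Macrophages held 173 CPM in HFD_shYap, 161 in HFD_WT, 287 in LFD_shYap and 246 in LFD_WT (log2 fold change 2.03 ± 0.127, adjusted p = 1.67e-19), again with both HFD libraries below both LFD libraries. cDC2 (1.58) and monocytes (0.87) were higher as well, the monocytes at 0.877 to 1.64 times what free macrophage RNA would give. NK cells were lower (log2 fold change -1.10 ± 0.233, adjusted p = 0.000107). The Tm4sf1/Msln cluster, among the highest in Jun, held only 8.58 CPM in HFD_shYap, 12.7 in HFD_WT, 8.18 in LFD_shYap and 17.5 in LFD_WT (log2 fold change -2.31 ± 0.190, adjusted p = 1.3e-15), and the Col3a1/Dcn cluster 8.66 CPM in HFD_shYap, 13.04 in HFD_WT, 10.7 in LFD_shYap and 19.9 in LFD_WT (log2 fold change -2.18 ± 0.208, adjusted p = 2.43e-13). Those values were 1.53 to 3.11 and 0.896 to 2.08 times what free macrophage RNA would give, and the Atf3 of B cells 0.750 to 1.27 times. In the Col3a1/Dcn cluster, whose ratio reaches under 1, a level of its own cannot be told apart from free RNA in every library. The ratios of B cells and monocytes reach under 1 as well, but they count every C1qa, C1qb and C1qc UMI as free RNA. Whether B cells and monocytes made these UMIs, or had macrophages among them, was not tested. For B cells and monocytes the ratio therefore cannot decide how much of the Atf3 is free RNA. Without doublet removal the Tm4sf1/Msln value was -1.26.

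**Figure D1:**
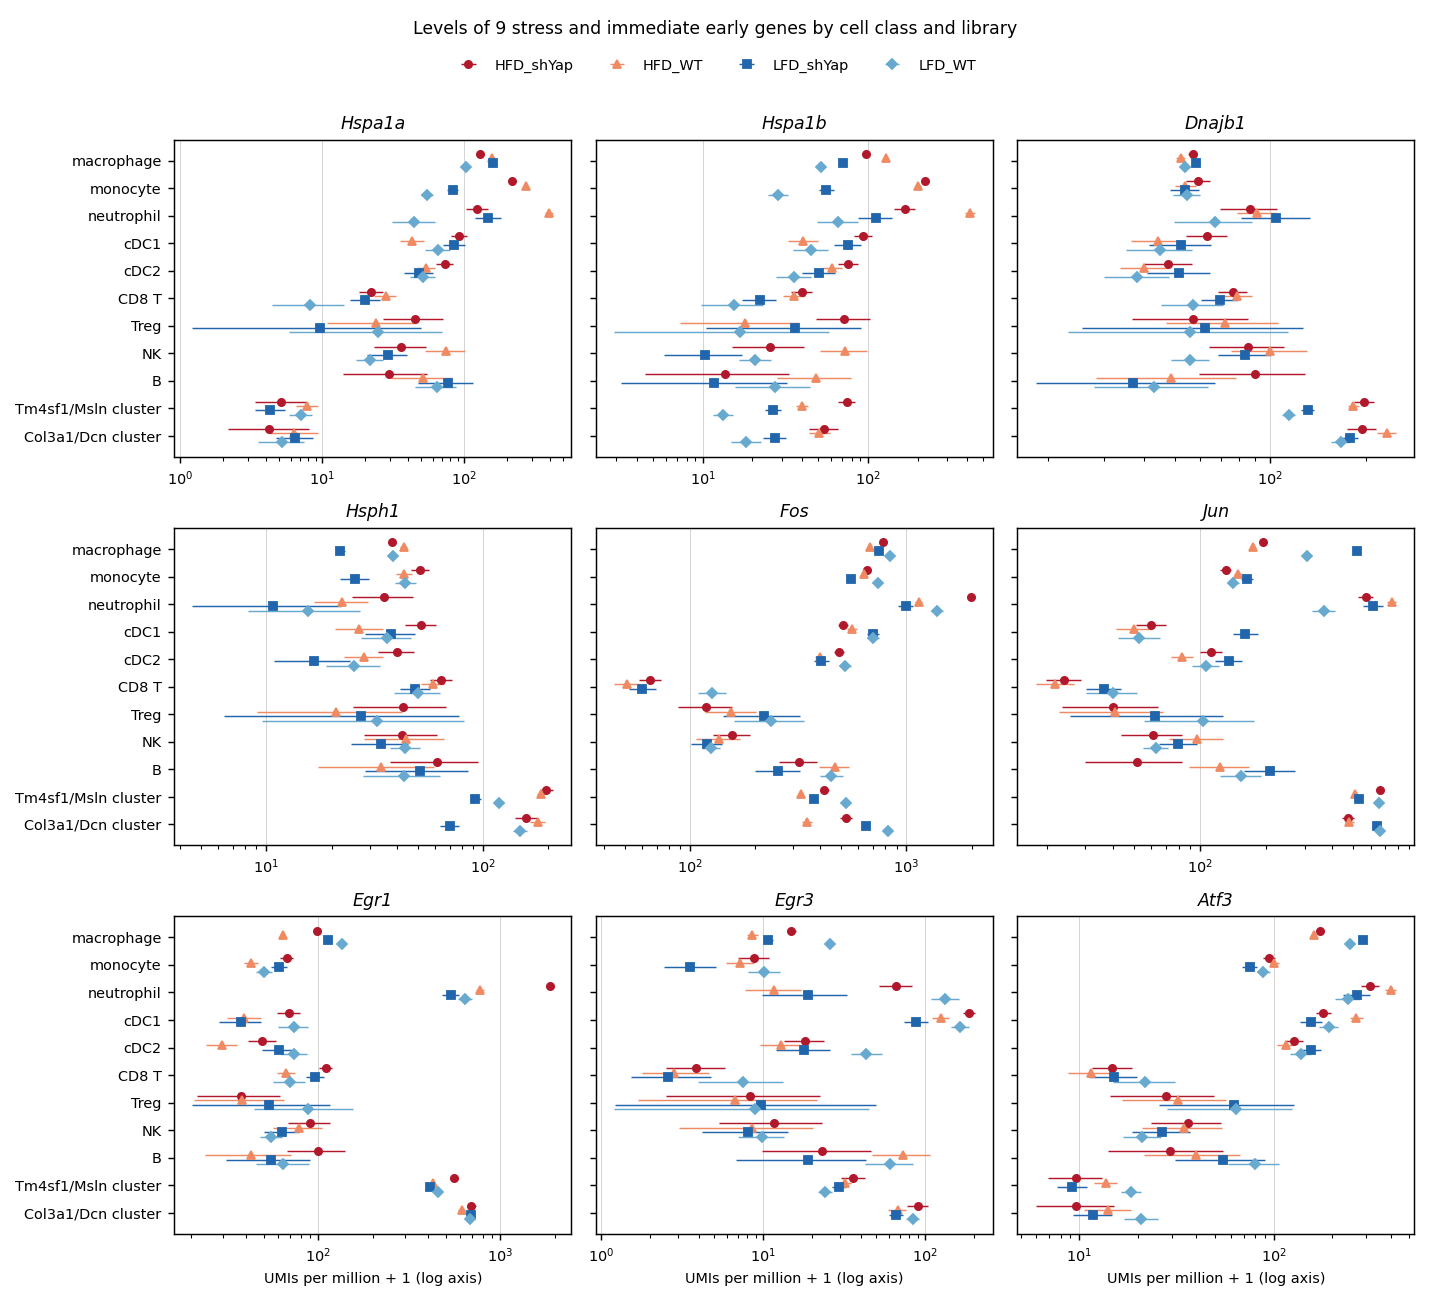
Levels of the 9 genes (CPM + 1, log axis) in 11 cell classes; each point is 1 library with its exact 95% Poisson interval, which covers counting error only. Neutrophils stand highest in every library in Fos and cDC1 in Egr3, the Tm4sf1/Msln and Col3a1/Dcn clusters have the highest means in Dnajb1 and Hsph1 and the lowest in Hspa1a and Atf3, and the classes highest in Hspa1a, Hspa1b, Jun, Egr1 and Atf3 change with the library.

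Most of these calls did not rest on 1 library. Of the 82 calls, 69 were made again with any library left out, and all 82 kept their sign in every alternative run. The 13 others were lost without at least 1 library, the adjusted p reaching at most 0.164 for Hspa1a in cDC2 (without HFD_shYap, LFD_shYap or LFD_WT), 0.086 for Hspa1b in the Col3a1/Dcn cluster (without the same 3), 0.0662 for Hspa1b in the Tm4sf1/Msln cluster (without LFD_shYap or LFD_WT) and 0.235 for Hspa1b in NK cells (without HFD_shYap or LFD_shYap). The others of the heat shock group were Dnajb1 in B cells (0.0619, without HFD_WT) and in regulatory T cells (0.0661, without HFD_shYap), and Hsph1 in regulatory T cells (0.0626, without HFD_WT). For Egr1 it was macrophages (0.635, without any 1 of the 4), and for Egr3 B cells (0.111, without HFD_WT), NK cells (0.153, without LFD_WT) and macrophages (0.298, without HFD_shYap, HFD_WT or LFD_shYap). The remaining 2 were in the class of T cells not described by itself.

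Classes too small to test also held these genes. A Col1a2/Mgp cluster of 72 cells held 1294 CPM in HFD_shYap, 1009.997 in HFD_WT, 2423 in LFD_shYap and 1870.2 in LFD_WT of Fos and 1090.3 CPM in HFD_shYap, 708 in HFD_WT, 1830.3 in LFD_shYap and 1018 in LFD_WT of Jun. Its Egr1 was 1156 CPM in HFD_shYap, 539 in HFD_WT, 995 in LFD_shYap and 1007 in LFD_WT. Kupffer-like macrophages, 229 cells, held 1106 CPM in HFD_shYap, 949.9 in HFD_WT, 765 in LFD_shYap and 1660.1 in LFD_WT of Fos and 155 CPM in HFD_shYap, 63.5 in HFD_WT, 109 in LFD_shYap and 89.3 in LFD_WT of Hspa1a. Endothelial-like cells, 86 in all, held 782 CPM in HFD_shYap, 404 in HFD_WT, 1266 in LFD_shYap and 633 in LFD_WT of Jun. With 11 to 100 cells per library, these values carry wide counting error and no test.

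In single cells, Fos and Hspa1a are given as examples of the immediate early and heat shock genes. Cells were thinned to 1000 UMIs each so that shares could be compared, and exact binomial intervals cover counting error only. Fos was found in 67.9% in HFD_shYap, 48.7% in HFD_WT, 50.5% in LFD_shYap and 60.8% in LFD_WT of thinned neutrophils, against 6.51% in HFD_shYap, 6.54% in HFD_WT, 5.57% in LFD_shYap and 12.1% in LFD_WT of thinned CD8 T cells, the class with the lowest mean Fos. Unthinned, at a median of 1660 to 2163 UMIs, the shares of neutrophils were 81.01% in HFD_shYap, 65.9% in HFD_WT, 66.2% in LFD_shYap and 75.7% in LFD_WT, and those of CD8 T cells, at a median of 5838 to 7356 UMIs, were 34.04% in HFD_shYap, 24.1% in HFD_WT, 33.4% in LFD_shYap and 47.2% in LFD_WT.

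Hspa1a was found in a smaller part of the neutrophils than Fos. It was found in 3.59% in HFD_shYap, 9.54% in HFD_WT, 5.05% in LFD_shYap and 2.54% in LFD_WT of thinned neutrophils, and in 7.59% in HFD_shYap, 13.7% in HFD_WT, 8.12% in LFD_shYap and 3.81% in LFD_WT unthinned. In HFD_WT, 134 of 979 neutrophils held all 852 UMIs, 6.36 per positive cell, against 2.06 in LFD_WT. Monocytes with a UMI held a mean of 8.82 in HFD_shYap, 11.2 in HFD_WT, 5.86 in LFD_shYap and 2.83 in LFD_WT. In the Col3a1/Dcn cluster, whose Hspa1a was no more than free RNA would give, 8.20% in HFD_shYap, 6.33% in HFD_WT, 6.12% in LFD_shYap and 5.40% in LFD_WT of cells held a UMI unthinned, at a median of 12508 to 29239 UMIs per cell, while the unthinned neutrophils had 1660 to 2163. Macrophages with a UMI, 33.9% in HFD_shYap, 28.8% in HFD_WT, 39.2% in LFD_shYap and 31.8% in LFD_WT of unthinned macrophages, held a mean of 5.84 UMIs in HFD_shYap, 7.38 in HFD_WT, 5.36 in LFD_shYap and 3.48 in LFD_WT. The Col3a1/Dcn cells with a UMI held 1.18 to 1.33 each.

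Within macrophages and within monocytes, cells thinned to 2000 UMIs were compared gene by gene, the points being cells of 1 library that share depth and handling. Hspa1a and Hspa1b went together, with Pearson's r of 0.43 to 0.67 over the 4 libraries in macrophages. Hspa1a and Dnajb1 had 0.02 to 0.14, both being known targets of heat shock factor 1. Hsph1 had 0.05 to 0.35 with Hspa1a, 0.06 to 0.40 with Hspa1b and 0.01 to 0.10 with Dnajb1. Fos and Jun had 0.20 to 0.30, Fos and Egr1 0.21 to 0.28, and Atf3 and Jun 0.21 to 0.36. Across the heat shock and immediate early genes, the Hsp70 pair reached similar values with Jun, Hspa1a 0.23 to 0.35 and Hspa1b 0.15 to 0.25. The other heat shock genes had lower values. Dnajb1 had 0.05 to 0.09 with Jun and 0.02 to 0.04 with Fos, and Hsph1 had 0.02 to 0.08 with Jun and -0.007 to 0.042 with Fos. Hspa1a had 0.13 to 0.21 with Egr1 and 0.05 to 0.17 with Fos. In monocytes the values were 0.48 to 0.83 for Hspa1a and Hspa1b, 0.17 to 0.45 for Hspa1a and Jun, and 0.03 to 0.16 for Fos and Jun. These values are a description of sparse counts.

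The spread of each gene over the 48 sums of class and library was split between classes, libraries and the rest, on log2(CPM + 1). Class took 94.6% of the spread of Atf3, 93.4% of Fos, 92.9% of Egr1 and 90.8% of Jun. It took 86.8% of Dnajb1, 84.3% of Hspa1a, 83.3% of Egr3 and 80.3% of Hsph1. Hspa1b stood apart with 50.4% for class and 25.5% for library. Over the 7623 genes with a mean of at least 10 CPM, the medians were 78.3% for class and 3.47% for library, and only 0.905% of them had a larger library share than Hspa1b. Hsph1 followed with 10.7%, exceeded by 11.98% of genes, while Hspa1a had 4.32%, Fos 2.02% and Atf3 1.19%. These are shares of each gene's own spread, so a small share need not mean a small difference between libraries. The SD of log2(CPM + 1) was 1.68 for Hspa1a, 1.21 for Fos and 1.64 for Atf3, against a median of 0.75 over the 7623 genes. Median library shares of the related lists were 4.29% for 18 other heat shock genes, 2.62% for 28 other immediate early genes and 2.17% for 10 genes of the integrated stress response. Genes of red blood cells, whose RNA floats free in droplets, had a median library share of 23.6% over 4 genes. The share was 2.89% for 1 hepatocyte gene, also listed for free RNA. It was 6.13% over 7 housekeeping genes and 3.06% over 8 genes induced by the T cell receptor.

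**Figure D2:**
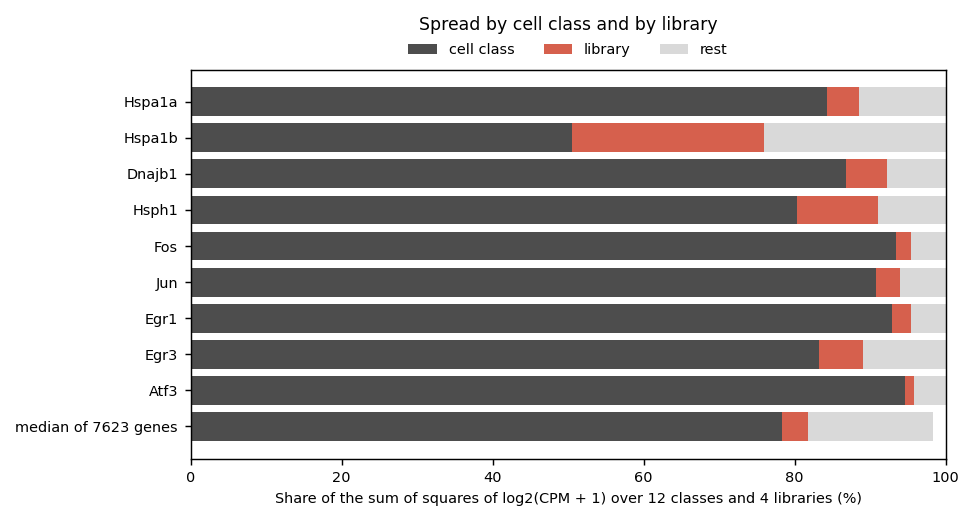
Share of the spread of log2(CPM + 1) over 48 sums that goes with cell class, with library and with neither, for each gene and as the median of 7623 genes. Class takes 80.3% to 94.6% in 8 genes, and Hspa1b has 50.4% for class and 25.5% for library.

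The order of the libraries differed from gene to gene. Hspa1b was highest in HFD_shYap in 8 of 12 classes and in HFD_WT in the other 4, and lowest in LFD_WT in 9. Hsph1 was highest in HFD_shYap in 9 classes and lowest in LFD_shYap in 9, so that LFD_WT was in between. Dnajb1 was lowest in LFD_WT in 8 classes. Fos went the other way, highest in LFD_WT in 8 classes and lowest in HFD_WT in 6, and Jun was highest in LFD_shYap in 6. Egr1 was highest in HFD_shYap in 8 classes and lowest in HFD_WT in 7. No library was thus the highest for all of the genes.

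**Figure D3:**
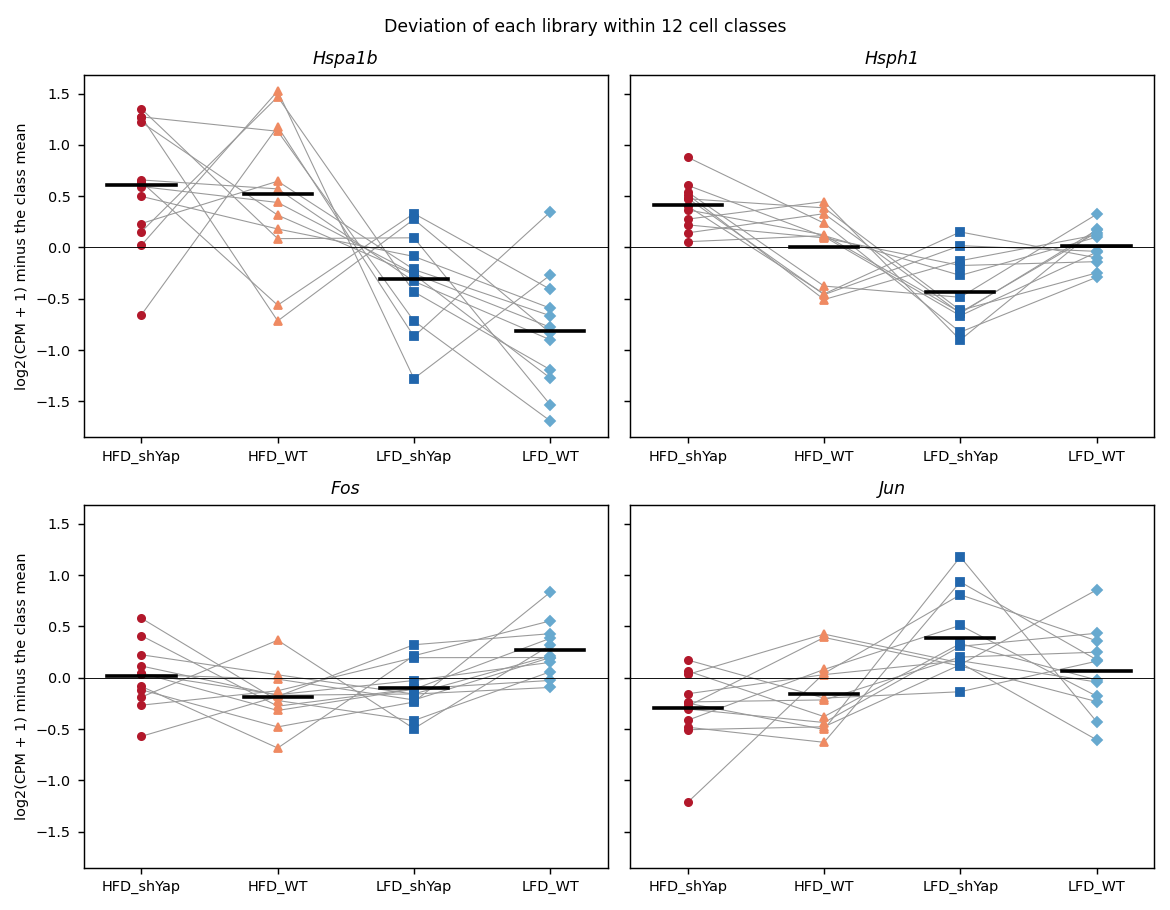
Deviation of each library from the mean of its class, on log2(CPM + 1), for Hspa1b, Hsph1, Fos and Jun; each line is 1 of 12 classes and the black bars are means over classes. Hspa1b is above the class mean in the HFD libraries in most classes, Hsph1 is lowest in LFD_shYap in 9 classes, and Fos is highest in LFD_WT in 8.

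The cells of HFD_shYap with Xist and those with Y-linked UMIs were processed in the same library, so that the 2 kinds could be compared within it. There is 1 library, no test was made, and intervals cover counting error only. In monocytes Hspa1a stood at 482 CPM in the Xist cells and 82.8 CPM in the Y-linked cells, a ratio of 5.82 (interval 5.14 to 6.60). In macrophages it stood at 203 CPM in the Xist cells and 91.8 CPM in the Y-linked cells, a ratio of 2.21 (interval 2.10 to 2.32). In neutrophils it stood at 431 CPM in the Xist cells and 98.9 CPM in the Y-linked cells, a ratio of 4.35 (interval 2.80 to 6.93), where 58 Xist and 119 Y-linked cells were compared. The Xist cells were higher in each of these classes.

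Hspa1b differed more. In monocytes it stood at 522 CPM in the Xist cells and 67.4 CPM in the Y-linked cells, a ratio of 7.75 (interval 6.78 to 8.89). In cDC2 it stood at 176 CPM in the Xist cells and 22.7 CPM in the Y-linked cells, a ratio of 7.76 (interval 5.22 to 11.8). In CD8 T cells it stood at 71.2 CPM in the Xist cells and 21.001 CPM in the Y-linked cells, a ratio of 3.39 (interval 2.35 to 4.97). Of 10 classes with enough cells of both kinds, 7 had an interval above 1 and 1 below it, for Hspa1a and for Hspa1b alike, and the class below was cDC1, where Hspa1a stood at 56.7 CPM in the Xist cells and 109.6 CPM in the Y-linked cells, a ratio of 0.517 (interval 0.372 to 0.709). Hsph1 had an interval above 1 in 5 classes and below it in 0, with 89.3 CPM in the Xist cells and 33.2 CPM in the Y-linked cells, a ratio of 2.69 (interval 2.17 to 3.36) in monocytes.

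The immediate early genes were mixed. Fos had an interval above 1 in 1 class and below it in 6, and in neutrophils stood at 1031 CPM in the Xist cells and 2173 CPM in the Y-linked cells, a ratio of 0.475 (interval 0.400 to 0.560). Egr1 in neutrophils stood at 929 CPM in the Xist cells and 2282 CPM in the Y-linked cells, a ratio of 0.407 (interval 0.341 to 0.484), and both values lay above the neutrophils of the other libraries. Over the 10 classes Egr1 had an interval above 1 in 3 and below it in 2, Jun in 1 and 1, Egr3 in 0 and 2, Atf3 in 1 and 4, and the co-chaperone gene Dnajb1 in 3 and 1. Median depth was similar, at 13067 UMIs in Xist and 13371 UMIs in Y-linked macrophages, and at 2499 UMIs in Xist and 2256 UMIs in Y-linked neutrophils.

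**Figure D4:**
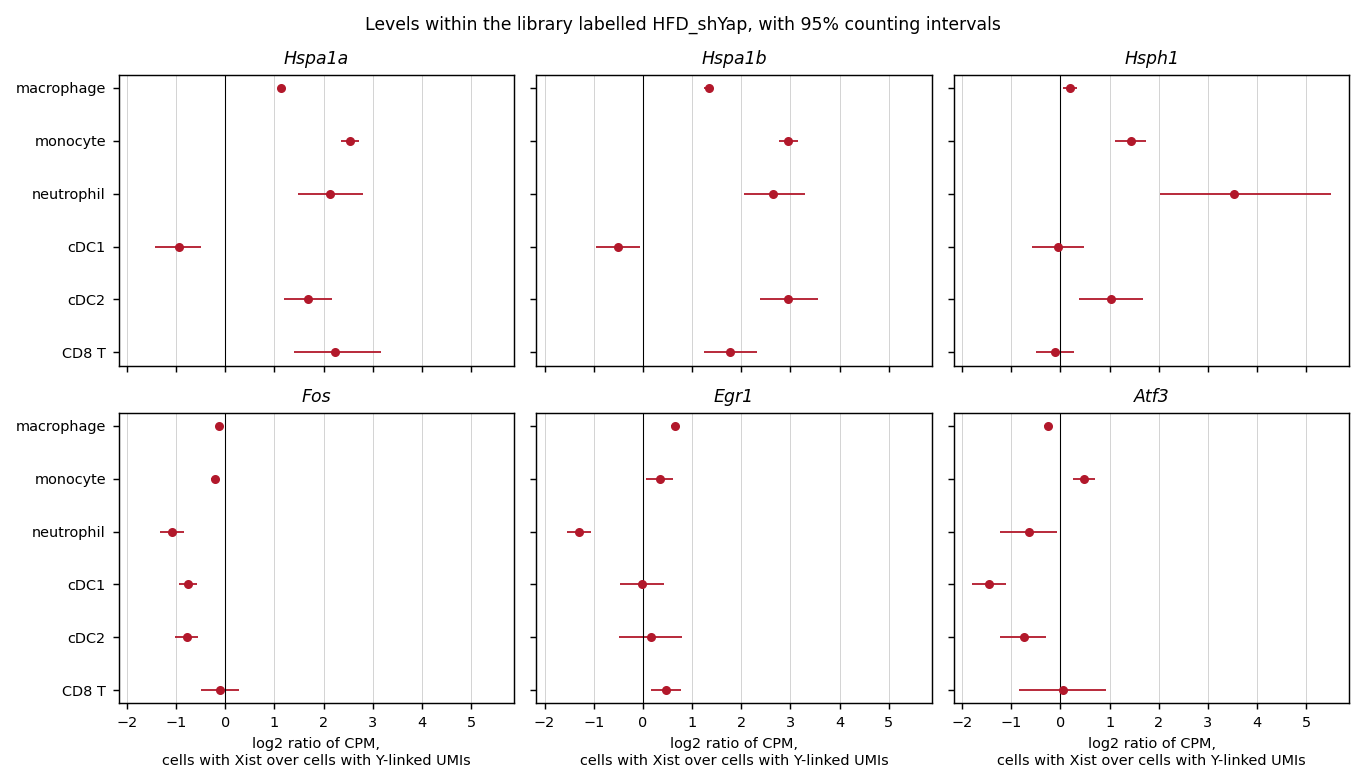
Ratio of Xist to Y-linked cells within HFD_shYap (log2 scale, exact 95% intervals, counting error only) for 6 genes in 6 classes. Hspa1a, Hspa1b and Hsph1 lie mostly above 0 and Fos at or below 0; cDC1 are below 0 for Hspa1a.

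Diet was tested in 3 lineages, the mononuclear phagocytes (macrophages, monocytes and Kupffer-like cells), the T lineage (the 3 classes of T cells) and neutrophils, with the tumour line as a covariate, which leaves 1 residual degree of freedom. Of the 27 tests of the 9 genes, 4 passed (edgeR quasi-likelihood test, Benjamini-Hochberg adjustment over all genes), beside 0.875% of all tests of all genes. An unadjusted p under 0.05 was found in 14 of the 27. Of all genes it was found for 960 of 14221 in phagocytes, 868 of 10327 in the T lineage and 721 of 6205 in neutrophils. Hspa1b was higher under the high-fat diet in the T lineage and in neutrophils, where 0.513% and 1.06% of all genes were higher. Jun was lower in the phagocytes and in the T lineage, where 0.253% and 0.368% of all genes were lower. In the other direction, 0.513% of all genes were higher in phagocytes and 0.0483% lower in neutrophils. DESeq2 called 3, all of them in phagocytes. Dnajb1, Hsph1, Fos, Egr1, Egr3 and Atf3 passed in no lineage, nor did Hspa1a.

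Hspa1b in the T lineage stood at 49.6 CPM in HFD_shYap, 35.2 in HFD_WT, 25.8 in LFD_shYap and 15.4 in LFD_WT, with both HFD libraries above both LFD libraries (log2 fold change 0.99 ± 0.226, adjusted p = 0.00824). In neutrophils the levels are those given above, with the same order of diets (log2 fold change 1.67 ± 0.394, adjusted p = 0.0381). In phagocytes it stood at 112 CPM in HFD_shYap, 139 in HFD_WT, 68.3 in LFD_shYap and 48.6 in LFD_WT, and the test was not passed (log2 fold change 1.06 ± 0.226, adjusted p = 0.0639). HFD_shYap over LFD_shYap was 1.64 (interval 1.58 to 1.70) in phagocytes and 1.92 (interval 1.52 to 2.46) in the T lineage, and HFD_WT over LFD_WT was 2.85 (interval 2.74 to 2.96) in phagocytes and 2.30 (interval 1.58 to 3.44) in the T lineage. Over the 12 classes, both HFD libraries were above both LFD libraries in 8 for Hspa1b and below in 0.

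These calls rested on single libraries and on the cells taken from HFD_shYap. With its Xist cells alone, Hspa1b had 1.61 (adjusted p = 3.99e-08) in the T lineage, 1.55 (0.000247) in phagocytes and 2.61 (2.1e-05) in neutrophils. With its Y-linked cells alone, which are like those of the other libraries in this respect, it had 0.40 (0.894) in the T lineage, 0.65 (0.909) in phagocytes and 1.41 (0.139) in neutrophils. Left out one at a time, HFD_WT, HFD_shYap and LFD_WT each ended the call of the T lineage (0.184, 0.944 and 0.795), and HFD_WT and LFD_WT that of neutrophils (0.707 and 0.261). With the treatment field's diet for LFD_shYap the adjusted p was 0.244 in the T lineage and 0.000293 in neutrophils. Diet cannot be told apart here from what else differed between 2 and 2 libraries.

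Jun in phagocytes stood at 187 CPM in HFD_shYap, 170.1 in HFD_WT, 484 in LFD_shYap and 289 in LFD_WT (log2 fold change -1.12 ± 0.221, adjusted p = 0.0431), both HFD libraries below both LFD libraries. The make-up of the lineage differed as well. A macrophage cluster held 36.2% of the phagocytes of LFD_shYap, 2123 cells, against 1.22% of those of HFD_shYap, 0.714% in HFD_WT and 0.721% in LFD_WT, and Jun there stood at 318 CPM in HFD_shYap, 438 in HFD_WT, 948 in LFD_shYap and 392 in LFD_WT. In the largest macrophage cluster Jun stood at 148 CPM in HFD_shYap, 104 in HFD_WT, 195 in LFD_shYap and 193 in LFD_WT, and in the cluster that took 28.8% of the phagocytes of LFD_WT at 480.4 CPM in HFD_shYap, 685 in HFD_WT, 472 in LFD_shYap and 473 in LFD_WT. Over 10 phagocyte clusters, both HFD libraries were below both LFD libraries in 5 and above in 1 for Jun. The part of this make-up in the call was not tested.

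With the Xist cells of HFD_shYap alone, Jun had -1.05 (adjusted p = 0.0181) in phagocytes and -0.80 (0.0654) in the T lineage, and with its Y-linked cells alone -1.16 (0.0597) in phagocytes and -0.94 (0.0309) in the T lineage. The Jun call in phagocytes was lost without HFD_WT (adjusted p = 0.873), HFD_shYap (0.608) or LFD_shYap (0.526), and with the treatment field's diet (0.9996). In the T lineage Jun stood at 25.96 CPM in HFD_shYap, 25.5 in HFD_WT, 42.3 in LFD_shYap and 46.5 in LFD_WT (log2 fold change -0.83 ± 0.212, adjusted p = 0.0315), both HFD libraries again below, and the call was lost without any 1 of the libraries (0.15 to 0.515) and with the treatment field's diet (0.534). Markers of phagocytes summed to 1693 CPM in HFD_shYap, 3432 in HFD_WT, 3390 in LFD_shYap and 5841 in LFD_WT in the T lineage, with 10 of 10 detected, and their part in the result was not tested. Every one of the 4 diet calls kept its sign in all alternatives.

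**Figure D5:**
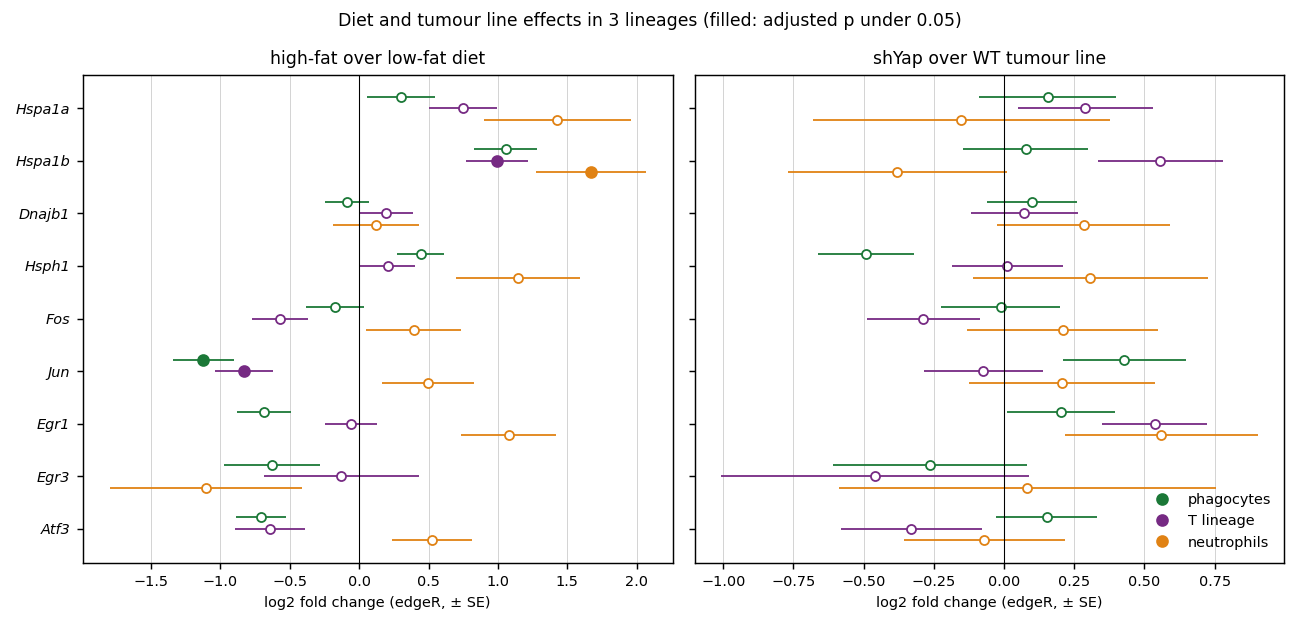
Log2 fold change by diet (high-fat over low-fat) and by tumour line (shYap over WT) with its standard error, for 9 genes in phagocytes, the T lineage and neutrophils; filled points have an adjusted p under 0.05. Hspa1b is filled in the T lineage and neutrophils and Jun in phagocytes and the T lineage by diet, and no gene by tumour line.

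Of the genes that did not pass, Hspa1a had log2 fold changes by diet of 0.30 (adjusted p = 0.999) in phagocytes, 0.75 (adjusted p = 0.199) in the T lineage and 1.43 (adjusted p = 0.267) in neutrophils. The value in neutrophils depended on the library left out: without LFD_shYap the adjusted p was 1.39e-05 and without HFD_WT 0.929. Egr1 had -0.68 (adjusted p = 0.236) in phagocytes and 1.08 (adjusted p = 0.178) in neutrophils. Atf3 had -0.71 (adjusted p = 0.154) in phagocytes and Fos had -0.57 (adjusted p = 0.259) in the T lineage. A p above the threshold does not show that these levels were alike.

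By tumour line, shYap over WT with diet as a covariate, 0 of 27 tests passed (edgeR quasi-likelihood test, Benjamini-Hochberg adjustment), beside 0.341% of all tests of all genes (0.0352% in phagocytes, 0.959% in the T lineage and 0.0161% in neutrophils). Of the 27, 3 had an unadjusted p under 0.05 and DESeq2 called 0. Of all genes, 902 of 14221 in phagocytes, 713 of 10327 in the T lineage and 692 of 6205 in neutrophils had such a p. Hspa1b in the T lineage had 0.56 (adjusted p = 0.447), and Egr1 there had 0.54 (adjusted p = 0.274). With the Xist cells of HFD_shYap alone, Hspa1b in the T lineage passed at 1.22 (adjusted p = 0.000166), and without HFD_WT at 1.28 (0.0304), while with the Y-linked cells alone it was -0.09 (0.99). Both pairs had the shYap library above in Hspa1b of the T lineage, by the levels given above.

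Other genes of the same pathways were taken as lists. Neutrophils, higher than the mean of the other classes in Fos, Egr1, Atf3 and the Hsp70 pair, had 23 of 28 other immediate early genes higher and 2 lower (median 1.72, all genes -0.09, with 30.1% of all genes higher and 30.1% lower). Among them were the MAP kinase phosphatase Dusp1 (3.21 ± 0.0879, adjusted p = 9.8e-35), Ier3 (3.92 ± 0.123), Csrnp1 (3.24 ± 0.0984) and the growth arrest gene Gadd45b (2.67 ± 0.101), while the nuclear receptor Nr4a2 (-1.75 ± 0.160) and Klf4 (-0.92 ± 0.142) were lower. Of 12 other genes of the integrated stress response, 9 were higher and 0 lower, with the phosphatase subunit Ppp1r15a (2.42 ± 0.106), Sesn2 (2.89 ± 0.132) and the CHOP gene Ddit3 (2.35 ± 0.124). Of 20 other heat shock genes only 4 were higher and 13 lower (median -0.70): Dedd2 (3.74 ± 0.112) and Hspa4l (1.48 ± 0.153) rose, and the chaperones Hsp90ab1 (-1.83 ± 0.107) and Hspe1 (-1.54 ± 0.104) fell relative to the other classes.

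The Tm4sf1/Msln cluster had 13 of the 20 other heat shock genes higher and 3 lower (median 0.87, all genes 0.11, with 43.7% of all genes higher and 33.2% lower), like its Dnajb1 and Hsph1. Among the higher were the Hsp90 co-chaperone Fkbp4 (1.84 ± 0.0743), Hsp90ab1 (1.64 ± 0.0756) and the mitochondrial chaperonin Hspd1 (1.43 ± 0.0845), and among the lower Dedd2 (-2.31 ± 0.157). Its other immediate early genes split into 11 higher and 15 lower, with the AP-1 subunit Fosl1 (4.85 ± 0.130) against the antiproliferative gene Btg2 (-3.47 ± 0.161), and 6 genes of the integrated stress response were higher and 5 lower, led by the asparagine synthetase Asns (4.67 ± 0.149). The Col3a1/Dcn cluster had 9 of the 20 other heat shock genes higher and 6 lower, near the 38.5% and 30.7% of all genes, with the co-chaperones Bag3 (2.42 ± 0.114) and Dnajb4 (1.93 ± 0.0965) among the higher. It had 12 other immediate early genes higher and 8 lower, and 5 integrated stress genes higher and 2 lower.

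Macrophages, where 30.2% of all genes were higher and 27.9% lower, had 2 of 20 other heat shock genes higher, the small chaperone Hspb1 (2.31 ± 0.292) and Bag3 (0.78 ± 0.114), and 10 lower. Their 28 other immediate early genes had 8 higher, a share near that of all genes, and 15 lower, with Egr2 (1.74 ± 0.131), Rhob (1.63 ± 0.112) and the mRNA-decay factor Zfp36 (1.18 ± 0.0706) higher and Dusp2 (-1.45 ± 0.152) lower, and 1 integrated stress gene was higher and 6 lower. CD8 T cells, lowest in Fos and Jun, had 5 of 28 other immediate early genes higher and 20 lower (median -1.05, all genes 0.11, with 35.0% of all genes higher and 21.3% lower), with Dusp2 (1.37 ± 0.124) and Nr4a2 (1.05 ± 0.113) higher and Klf4 (-2.51 ± 0.152) and Klf2 (-2.62 ± 0.216) lower. They had 10 other heat shock genes higher and 3 lower, with Hspd1 (0.83 ± 0.0920) among the higher, and 2 integrated stress genes higher and 8 lower. Of 8 genes induced by the T cell receptor, CD8 T cells had 4 higher and 3 lower, near the share of all genes, and cDC2 had 7 higher and 0 lower, where 24.6% of all genes were higher and 14.9% lower.

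By diet, none of the other heat shock genes passed in any lineage (20, 19 and 15 tested in phagocytes, the T lineage and neutrophils). Of the 28 other immediate early genes, 1 passed in the T lineage, Klf2 (-0.74 ± 0.197, adjusted p = 0.0444), lower under the high-fat diet, and 1 in neutrophils, Maff (1.25 ± 0.290, adjusted p = 0.0353). Of all genes, 0.368% were lower in the T lineage and 1.06% higher in neutrophils. By line only Ier3 (-0.83 ± 0.199, adjusted p = 0.0164) passed, in the T lineage, where 0.959% of all genes passed in either direction.

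Across the 48 sums of class and library, which share libraries and depth, each gene's nearest patterns were named by Pearson's r of log2(CPM + 1), as a description. Atf3 was nearest to Zfp36, Ogfrl1 and Alox5ap (0.92 each), and Fos to Marcks (0.92), Nfe2l2 (0.89) and Trib1 (0.88). Jun was nearest to Cd63 (0.88), Egr1 to Csf1 (0.86) and Egr3 to Lrrk2 and Nr4a1 (0.80 each). Hspa1a was nearest to AB124611 (0.87), Efhd2 and Fuca2 (0.86 each), Dnajb1 to Wwtr1 (0.86) and Dcn (0.85), and Hsph1 to Hdgf, Dnajc21 and Hspa9 (0.83 each). Hspa1b had no near pattern, its best being Tet2 at 0.67. Among the 9, Hspa1a had 0.63 with Hspa1b, 0.77 with Atf3, -0.60 with Dnajb1 and -0.65 with Hsph1. Dnajb1 had 0.74 with Egr1, and Fos had 0.72 with Jun.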

How the data were processed

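For each of 4 libraries the authors deposited a matrix of unnormalized UMI counts, genes by barcodes, from droplets of CD45-selected cells made with 10x Genomics 3′ v3.1 chemistry per the labels. Per the submitters' processing notes, the build was mm10 and the tools were STAR 2.5.1 and Cell Ranger 4.0.0, while the file headers give another Cell Ranger version. How barcodes were selected before deposit is not stated in the labels. Barcodes with at least 200 genes and a mitochondrial share under 15% were kept, which left out 1649 to 2209 per library for mitochondrial share. The doublet caller's own threshold marked 0, 305, 0 and 0 barcodes and had not worked in 3 libraries, so the barcodes with the highest doublet scores were removed at 0.8% per 1000 barcodes, 605 to 1486 per library.

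Cells were clustered with scanpy 1.11.5 (2000 variable genes, 30 components, 15 neighbours, resolution 1; 29 clusters, and 11 subclusters of T cells). The 9 genes and the related lists were held out of the variable genes. UMI counts were summed per library and class and tested with edgeR 4.0.16 (quasi-likelihood, TMM, filterByExpr, Benjamini-Hochberg over all genes of a contrast, threshold 0.05), each class against the mean of the others with library as a block, and diet and tumour line with the other as a covariate. On simulated counts with known changes, the diet test recovered 88% of 2-fold rises in phagocytes, 84% in the T lineage and 52% in neutrophils, and all 4-fold rises. The simulation had the same fixed dispersion for every gene, no line effect and no interaction of diet and line. Only genes above a minimum level were changed. Recovery in the real libraries, where the diet pairs can differ, may be lower. Levels are CPM of the class's UMIs with exact 95% Poisson intervals. Ratios of 2 libraries have exact intervals that cover counting error only. Cells were thinned to 1000 UMIs for shares. The free-RNA ratio divides the CPM of a gene in a class by its macrophage CPM times the class's share of the macrophages' C1qa, C1qb and C1qc. It takes all UMIs of these 3 genes in a class as free RNA.

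The genes, lists and tests were chosen with earlier results of these data known. The text describes the 9 genes by class, except in 1 class of T cells that is not reported here by itself, and names for each related list at most 4 of its genes in each direction by smallest p among those past the threshold, and 3 nearest genes per gene at most. The alternatives were DESeq2 1.42.0, other size factors, no expression filter, no doublet removal, a 10% mitochondrial limit, clustering with all genes, no library block, each library left out, the Xist or Y-linked cells of HFD_shYap alone, and the treatment field's diet. Neutrophils with a small Camp/Ngp cluster were added after seeing the data. Sequences and gene positions came from RefSeq GRCm38.p6 and the matching GRCm38 annotation.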

Additional observations from a re-analysis of the deposited data

Results flagged for a closer look

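Egr3 in neutrophils moved in opposite directions in the 2 diet pairs: HFD_shYap over LFD_shYap was 3.65 (interval 1.92 to 7.65), from 71 and 11 UMIs, and HFD_WT over LFD_WT was 0.0810 (interval 0.0491 to 0.128), from 23 and 100 UMIs. The first ratio is 45.1 times the second. Each pair is 1 library against 1, and the difference was not tested. In phagocytes the same ratios of Egr3 were 1.42 (interval 1.29 to 1.58) and 0.320 (interval 0.290 to 0.351).

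The barcodes left out for a high mitochondrial share, which entered no comparison, held 3 of the genes above the level of the kept barcodes in every library: Jun by 1.35 to 1.71 times, Egr1 by 1.21 to 1.96 times and Egr3 by 1.48 to 2.07 times. The other 6 did not stand above in all 4 libraries beyond counting error, with Hsph1 at 1.15 to 2.26 times, Hspa1a at 1.02 to 1.72 times, Hspa1b at 0.924 to 1.83 times, Atf3 at 0.714 to 1.17 times, Fos at 0.817 to 1.02 times and Dnajb1 at 0.646 to 0.716 times. The left-out barcodes were not clustered, so these ratios are not within a cell class. The part of a different make-up of classes was not tested.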

How the results depend on the processing

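The number of calls between cell classes, 82 of 108, lay between 72 (no library block) and 86 (no expression filter) under the alternatives, and between 75 and 77 with a library left out; DESeq2 called 80. The number of diet calls, 4 of 27, was 7 with the Xist cells of HFD_shYap alone, 1 with its Y-linked cells alone, 0 with clustering on all genes, 2 with the 10% mitochondrial limit, 1 without doublet removal, 9 without an expression filter and 0 with diet alone in the model. With a library left out it was between 1 and 8. It was 3 with DESeq2, the treatment field's diet or the Camp/Ngp cluster, and 4 with the other size factors. The number of line calls, 0, was 1 with the Xist cells alone and 0 or 1 with a library left out. Fits that leave out a library had the tested factor alone, and a lone library was assumed to vary like the others. The shares of all genes that passed under each alternative are not printed here. These counts therefore cannot tell a change in the 9 genes from a general rise or fall in calls. No paired analysis was possible because each combination has 1 library and no replicate number; the 2 lines are the covariate.

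Ratios of single libraries turned round in 17 cases, with no test behind them; the cause was not tested. For phagocytes in log2, HFD_shYap over LFD_shYap was 0.67 with the Xist cells alone and 0.41 with clusters weighted equally for Hspa1a (-0.12 as reported here for all cells), 0.17 and 0.24 for Egr1 (-0.18), and -0.022 with the Xist cells for Fos (0.075). HFD_shYap over HFD_WT there was, with the Xist cells, 0.48 for Hspa1a (-0.31), 0.60 for Hspa1b (-0.31), 0.17 for Hsph1 (-0.12) and -0.045 for Atf3 (0.099), and with equal weights -0.13 for Dnajb1 (0.13) and -0.21 for Jun (0.14). LFD_shYap over LFD_WT with equal weights was -0.033 for Dnajb1 (0.092). In neutrophils, HFD_shYap over HFD_WT with the Xist cells was 0.12 for Hspa1a (-1.69), 0.59 for Hspa1b (-1.32) and -0.14 for Fos (0.80). Without doublet removal it was -0.37 for Hsph1 (0.67), and HFD_shYap over LFD_shYap was -0.23 for Hspa1b (0.59).

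Of the other ratios, 193 moved by less than their counting interval and 96 by more. Neutrophils, at 617889 to 2153485 UMIs per library, limit what the diet test can show for genes of few UMIs such as Egr3. Counting intervals do not hold the variation between animals.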
